A study of Mus musculus with 3 samples.

Results

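The doublecortin, MAP and stathmin genes encode proteins that bind tubulin or microtubules and are used as markers of young and maturing neurons. The set held 10 genes chosen by name: the doublecortin genes Dcx, Dclk1 and Dclk2, the microtubule-associated protein (MAP) genes Map1b, Map2 and Mapt, the stathmin genes Stmn1, Stmn2 and Stmn3, and the neuronal tubulin gene Tubb3. All 10 were measured, each by 1 probe set that carries its symbol alone, of 22180 genes in all. The 3 arrays were of 1 group and held biotin-labelled total RNA from neurospheres of wild-type (WT) CD1 mice aged P8, where the growth protocol allows P7. Cells dissociated from the ventricular-subventricular zone (V-SVZ), a stem cell region beside the lateral ventricles, were plated at 10 cells per microlitre. The medium held FGF at 10 ng/ml and EGF at 20 ng/ml, floating colonies were grown for 7 days, and each pup was cultured on its own. The labels name no transgene and no treatment beyond these culture conditions. The sources used here do not say which animal or animals each array stands for, so the errors measure the spread between arrays, which may be technical.

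Microtubules are polymers of alpha and beta tubulin that grow and shrink at their ends. Doublecortins and MAPs bind along the polymer and stabilise it, whereas stathmins bind tubulin dimers and favour disassembly. In the V-SVZ, stem cells give rise to neuroblasts that migrate to the olfactory bulb, and doublecortin and class III beta-tubulin are the usual markers of these migrating cells. Several of these proteins are also made outside neurons: tau and MAP2 occur in cells of the oligodendrocyte lineage and stathmin 1 in dividing cells of many kinds.

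The start region of 1 gene of each family is printed, to show the sequence around which transcription of these genes begins. RefSeq start windows of build GRCm38.p6 were matched for 7 of the 10 genes (9 windows, since Dcx and Dclk1 have 2 each). The windows of Mapt, Stmn1 and Stmn2 were not analysed here. Each run holds the 250 bases before the start on the gene's own strand, 5′ to 3′, for Dcx (chrX:143933220-143933469, minus strand, the first listed start), Map2 (chr1:66175079-66175328, plus strand), Stmn3 (chr2:181314501-181314750, minus strand) and Tubb3 (chr8:123411303-123411552, plus strand). Capitals mark matches, on either strand, to TATAA (the TATA element), GGGCGG (the GC box), CANNTG (the E-box, bound by basic helix-loop-helix factors) and CCAAT.
Dcx: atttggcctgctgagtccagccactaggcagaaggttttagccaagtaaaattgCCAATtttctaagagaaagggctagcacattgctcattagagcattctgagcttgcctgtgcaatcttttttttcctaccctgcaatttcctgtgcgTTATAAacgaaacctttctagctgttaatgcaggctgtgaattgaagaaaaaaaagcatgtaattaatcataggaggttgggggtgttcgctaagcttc
Map2: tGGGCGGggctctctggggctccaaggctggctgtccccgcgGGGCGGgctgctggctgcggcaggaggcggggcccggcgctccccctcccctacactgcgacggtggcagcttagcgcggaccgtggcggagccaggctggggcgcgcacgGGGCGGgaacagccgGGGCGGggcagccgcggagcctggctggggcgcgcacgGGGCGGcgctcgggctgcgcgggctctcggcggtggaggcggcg
Stmn3: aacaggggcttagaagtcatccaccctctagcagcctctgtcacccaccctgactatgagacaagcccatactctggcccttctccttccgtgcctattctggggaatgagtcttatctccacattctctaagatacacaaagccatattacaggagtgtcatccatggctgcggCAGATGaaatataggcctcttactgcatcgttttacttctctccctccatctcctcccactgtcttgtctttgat
Tubb3: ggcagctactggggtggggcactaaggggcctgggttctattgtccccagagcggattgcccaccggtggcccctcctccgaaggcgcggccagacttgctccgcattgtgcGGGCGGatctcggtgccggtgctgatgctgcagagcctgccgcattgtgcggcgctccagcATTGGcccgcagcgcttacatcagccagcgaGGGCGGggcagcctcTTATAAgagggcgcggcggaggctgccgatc

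These start regions differed in base composition. G and C made up 41.6% of the first Dcx window, 81.2% of the Map2 window, 48.8% of the Stmn3 window and 68% of the Tubb3 window. The median over the 9 windows was 52.4%, the same as over all 32851 windows of the table. TATAA was found in 4 of the 9 windows (44.4%), namely both Dcx windows, Map1b and Tubb3, against 22.8% of all windows. The 2 Dcx windows overlap and hold the same match, and TTATAA in Dcx and Tubb3 reads as TATAA on both strands. In Tubb3 the match began 31 bases before the start. It lay further away in Map1b (99 bases) and in the first and second Dcx windows (99 and 194 bases). Of all windows, 3.53% had one that began 25 to 35 bases before the start. GGGCGG was found in 4 windows (Dclk2, Map1b, Map2 and Tubb3), against 32.7% of all windows, and it occurred 5 times in Map2. CANNTG was found in both Dclk1 windows, Map1b and Stmn3 (44.4%), against 66.2% of all windows. CCAAT was found in the first windows of Dcx and Dclk1 and in Tubb3 (33.3%), against 33.8% of all windows. A match describes these letters and does not show that a factor binds there.

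With a single group there was no contrast between conditions, and the first question was whether each transcript gave more signal than unspecific binding on its own array. Signals are on the log2 scale. Unspecific binding was read from 1407 probe sets of receptors of the nose (olfactory and vomeronasal), and their 95th percentile, the reference level, was 5.63, 5.53 and 5.71 on arrays 1, 2 and 3. A gene was called above it when limma's one-sided moderated test gave an adjusted p under 0.05 over all genes. All 10 neuronal microtubule genes were above the reference level, beside 59.1% of the 22180 genes. Their median margin, the mean signal minus the reference level, was 4.32 on the log2 scale. The median was 0.76 over all genes and 2.50 over the 13104 genes above the reference level. All genes include the receptors that set the level. Without them, 62.8% of genes were above and the median margin was 1.05. The shared spread in this fit makes the p-values of the 10 genes very small, and they are not printed. The adjusted p given below for Dclk3 and Fign come from this same shared-spread fit. Each gene was also tested in limma with the spread of its own margin alone. The adjusted p of the 10 genes then lay between 8.02e-04 and 0.00398 (limma, n = 3). That spread includes the spread of the reference level, which all genes share. Dcx had an SD of 0 in signal and 0.090 in margin, and Mapt had 0.0053 and 0.095. In genes with so small an SD, the p-value and the SD of the margin measure mostly the spread of the reference level between arrays. Probes bind with different strength, so the signal of one gene is not ranked against that of another. The median margins describe sets of genes and do not rank their amounts of transcript.

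**Figure D1:**
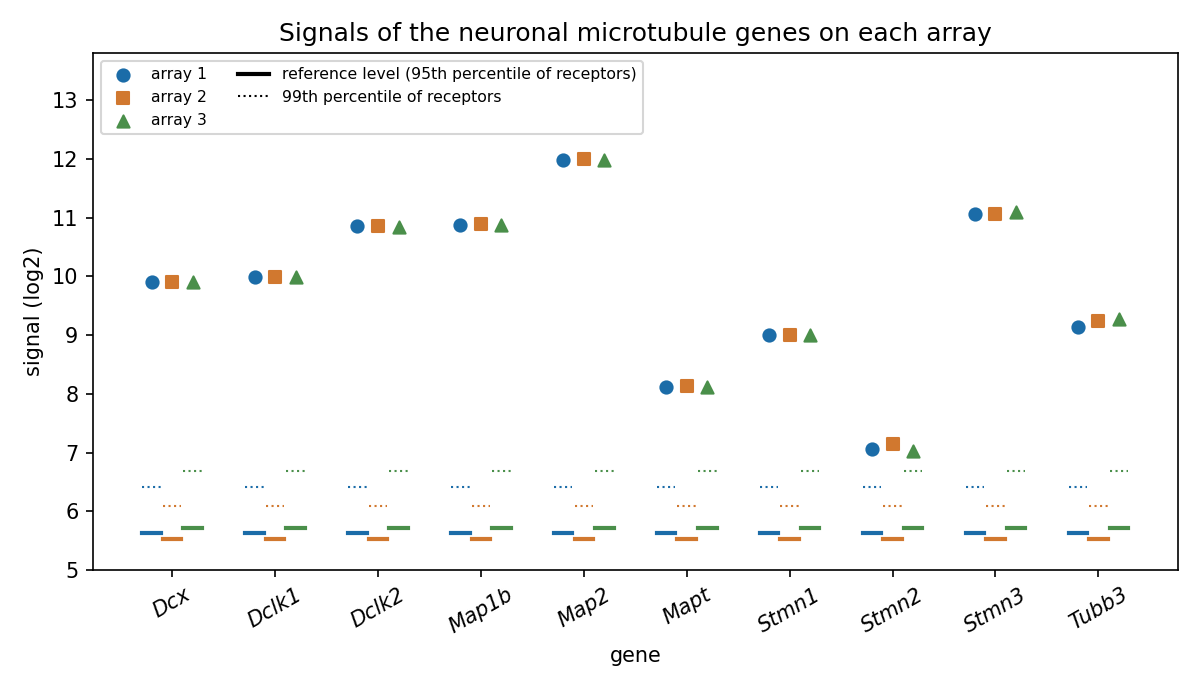
Signal (log2, y axis) of the 10 neuronal microtubule genes (x axis) on arrays 1, 2 and 3, with each array's reference level as a solid bar and the 99th percentile of the receptors as a dotted bar. Every point lies above both bars of its own array, and the 3 points of a gene nearly coincide. Heights of different genes are not comparable.

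The doublecortin genes of the set gave nearly constant signals well above the reference level. Dcx, which encodes the microtubule stabiliser of migrating neuroblasts, had 9.90 on array 1, 9.90 on array 2 and 9.90 on array 3, an exactly equal deposited value. Its margin over the reference level was 4.27 ± 0.090 (SD, n = 3), where the SD comes from the reference levels alone. Dclk1, whose protein joins doublecortin domains to a kinase domain, also had 1 value on the 3 arrays, 9.98, with a margin of 4.36 ± 0.090. Dclk2, a second kinase of that build, had 10.85, 10.86 and 10.84 on arrays 1, 2 and 3 and a margin of 5.22 ± 0.10. Its range over the arrays, 0.0215, was small beside that margin. The third kinase of the family, Dclk3, was close to the limit, with 5.79, 5.75 and 5.79 on arrays 1, 2 and 3 and a margin of 0.16 (limma, adjusted p = 0.0363). It lay above the reference level on each array and under the 99th percentile of the receptors on each. Its call ended under 6 of 13 alternative settings. Each of these genes has 1 probe set, so isoforms with and without the kinase domain could not be told apart.

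The 3 MAP genes were each above the reference level on every array. Map1b, whose protein is prominent in growing axons, had 10.88, 10.89 and 10.88 on arrays 1, 2 and 3, a margin of 5.26 ± 0.095. Map2, which encodes the main dendritic MAP, had 11.98, 11.99 and 11.98, a margin of 6.36 ± 0.096. Mapt, the gene of the axonal protein tau, had 8.12, 8.13 and 8.12, a margin of 2.50 ± 0.095. In all 3 genes arrays 1 and 3 held exactly the same value and array 2 was higher, by 0.00882 for Map1b, 0.0106 for Map2 and 0.00926 for Mapt.

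The 3 stathmin genes were also above the reference level on every array. Stmn1, the broadly expressed tubulin-sequestering stathmin, had exactly 8.999 on each array and a margin of 3.38 ± 0.090. Stmn2, the membrane-bound stathmin of growth cones, had 7.06, 7.15 and 7.03 on arrays 1, 2 and 3 and a margin of 1.45 ± 0.15. On each array Stmn2 was nevertheless above the 99th percentile of the receptors, which was 6.42, 6.09 and 6.68 on arrays 1, 2 and 3. Stmn3, another membrane-associated neuronal stathmin, had 11.05, 11.05 and 11.10, a margin of 5.45 ± 0.070, with array 3 higher than the other two. The remaining member of the family, Stmn4, had 6.40, 6.16 and 6.59 on arrays 1, 2 and 3 and a margin of 0.76. It passed the test, but its call ended when the reference level was the 99th percentile, with other reference genes, and when the lower of its 2 probe sets was used.

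Tubb3 encodes class III beta-tubulin, the isotype recognised by a widely used neuronal antibody. It had 9.14 on array 1, 9.25 on array 2 and 9.26 on array 3, a margin of 3.59 ± 0.11. Array 1 was the lowest, and the range of 0.122 was the widest among the 10 genes.

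The second question was how far the 3 arrays differed in these genes. Dcx, Dclk1 and Stmn1 held the same deposited value on all 3 arrays, 30% of the set, beside 39.4% of all genes. With Map1b, Map2, Mapt and Stmn3, 7 of the 10 genes (70%) shared a value between at least 2 arrays, beside 75% of all genes. An SD of 0 in such genes understates the true spread. The median range was 0.00993 over the 10 genes, against 0.0298 over all genes above the reference level. The 10 genes also had the higher median margin, 4.32 against 2.50. Over the 6 pathway lists described below, the median range lay between 0.00339 (microtubule ends, dynein adaptors and severing enzymes) and 0.106 (tubulin genes). Stmn2 (0.118) and Tubb3 (0.122) were the members with a range over 0.1, 20% of the set. The share was 35.1% of all genes and 29.6% of the genes above the reference level. Array 2 alone held the highest value of Dclk2, Map1b, Map2, Mapt and Stmn2, array 3 alone that of Stmn3 and Tubb3, and array 1 alone that of no member. Over all genes the shares were 24% for array 2, 15.6% for array 3 and 3.32% for array 1.

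**Figure D2:**
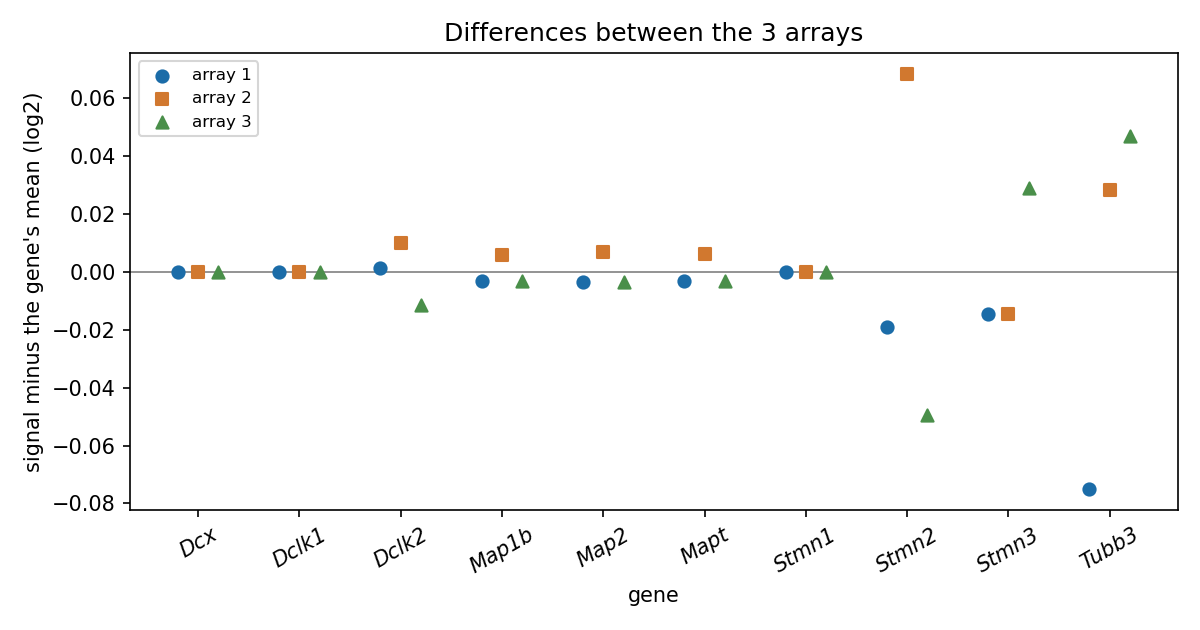
Signal on each array minus the gene's mean over the 3 arrays (log2, y axis) for the 10 neuronal microtubule genes (x axis). Dcx, Dclk1 and Stmn1 lie at 0 on all arrays, array 2 is slightly higher in Map1b, Map2 and Mapt, and Stmn2, Stmn3 and Tubb3 show the wider spreads.

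limma's variance ratio, which sets a gene's spread between arrays against that of genes of like signal, called 0 of the 10 genes and 0 of all 22180 genes (0%). No gene had an unadjusted p under 0.05 either, so this test carries no information on the stability of the set. Over only the 5534 genes with 3 different values, a choice made after the data were seen, 0 genes passed after adjustment and 287 had an unadjusted p under 0.05. Dclk2, Stmn2 and Tubb3 were in that fit, with limma adjusted p of 0.996, 0.996 and 0.994. As 0 genes of that fit passed, these values do not set the members apart from other genes. The profile of Tubb3, the member with the widest range, was compared with that of the other 13103 genes above the reference level, after each gene's own mean was subtracted, by Euclidean distance over the 3 arrays. The nearest were Btbd17 (distance 0.00911), 4932702P03Rik (0.0119) and Tomm20 (0.0124), and 75 genes lay within 0.05. With 3 arrays of 1 group this likeness is a description only.

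Genes that act with the set were read from the same fit. In that fit 59.1% of all genes were above the reference level. The median margin was 0.76 over all genes and 2.50 over the genes above. Of 14 other family relatives, all 14 were above the reference level, with a median margin of 2.26. The MAP1 relatives Map1a (9.02 on each array) and Map1s (8.46 ± 0.013) and the MAP1 light chain relatives Map1lc3a (7.89 ± 0.046) and Map1lc3b (12.51 ± 0.020), the last 2 known for their part in autophagy, were among them. Map4, the MAP of non-neuronal tissues, had 10.68 on each array, and Map9, a spindle-associated MAP, had 7.48 ± 0.029.

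Some of the MAP6 and MAP7 relatives lay near the reference level. Map6, which makes neuronal microtubules resistant to cold, had 6.83, 7.15 and 6.70 on arrays 1, 2 and 3, and Map6d1 had 8.34 ± 0.13. The kinesin cofactor gene Map7 had 6.58 ± 0.063, and its relatives Map7d1, Map7d2 and Map7d3 had 7.89 ± 0.022, 7.89 ± 0.093 and 6.31 ± 0.13. Map7 and Map7d3, like Dclk3 and Stmn4, lost their calls with the 99th percentile as the reference level. With the other reference genes, these 4 and Map6 were not above. Map6 also was not above when the lower of its 2 probe sets was used.

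Tubulin genes were mixed. Of 15 measured, 12 were above the reference level (80%, beside 59.1% of all genes) and 3 were not, with a median margin of 2.05. Tuba1a, the main alpha-tubulin gene of developing brain, had 12.13 ± 0.022 and Tubb2a, a beta-tubulin gene of brain, 9.005 ± 0.056. Tuba1b had 7.23 ± 0.19 and Tuba1c 5.95 on each array. Not above were Tuba8 (5.56), the platelet isotype gene Tubb1 (4.64 ± 0.065) and Tubb4b (5.25 ± 0.079). Tubulin genes have near-identical copies, so signals of single isotypes, Tubb3 included, are uncertain where probes could bind more than 1 of them.

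Kinases and phosphatases that act on microtubule proteins were above in all 15 measured cases, beside 59.1% of all genes (median margin 3.01). Cdk5, a kinase of doublecortin and tau, had 11.11 ± 0.024. Its activators Cdk5r1 (p35) and Cdk5r2 (p39) had 7.72 on each array and 6.47 ± 0.16. Gsk3b, a kinase of tau and Map1b, had 11.59 on each array.

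Of 17 factors of microtubule ends, dynein adaptors and severing enzymes, 16 were above (median margin 3.49). They included the end-binding genes Mapre1 (10.66 ± 0.054), Mapre2 (9.06) and Mapre3 (8.17) and the stabiliser gene Clasp1 (10.59), while the severing enzyme gene Fign (5.71 on each array; limma adjusted p = 0.22) did not pass. All 14 motor genes were above (median margin 3.82), including the vesicle motor gene Kif1a (11.12), its relative Kif1b (11.18) and the depolymerising kinesin genes Kif2a (9.75) and Kif2c (7.71 ± 0.14). Of 15 tubulin modification enzymes, 14 were above (median margin 2.57). Among them were Ttl (8.50), which returns tyrosine to alpha-tubulin, and the tubulin ligase-like genes Ttll1 (9.78), Ttll4 (8.33 ± 0.051) and Ttll7 (7.61 ± 0.18), and the deglutamylase gene Agbl2 (4.80) was not above. Together 85 of 90 measured pathway genes were above the reference level (94.4%), beside 59.1% of all genes and 62.8% without the receptors.

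**Figure D3:**
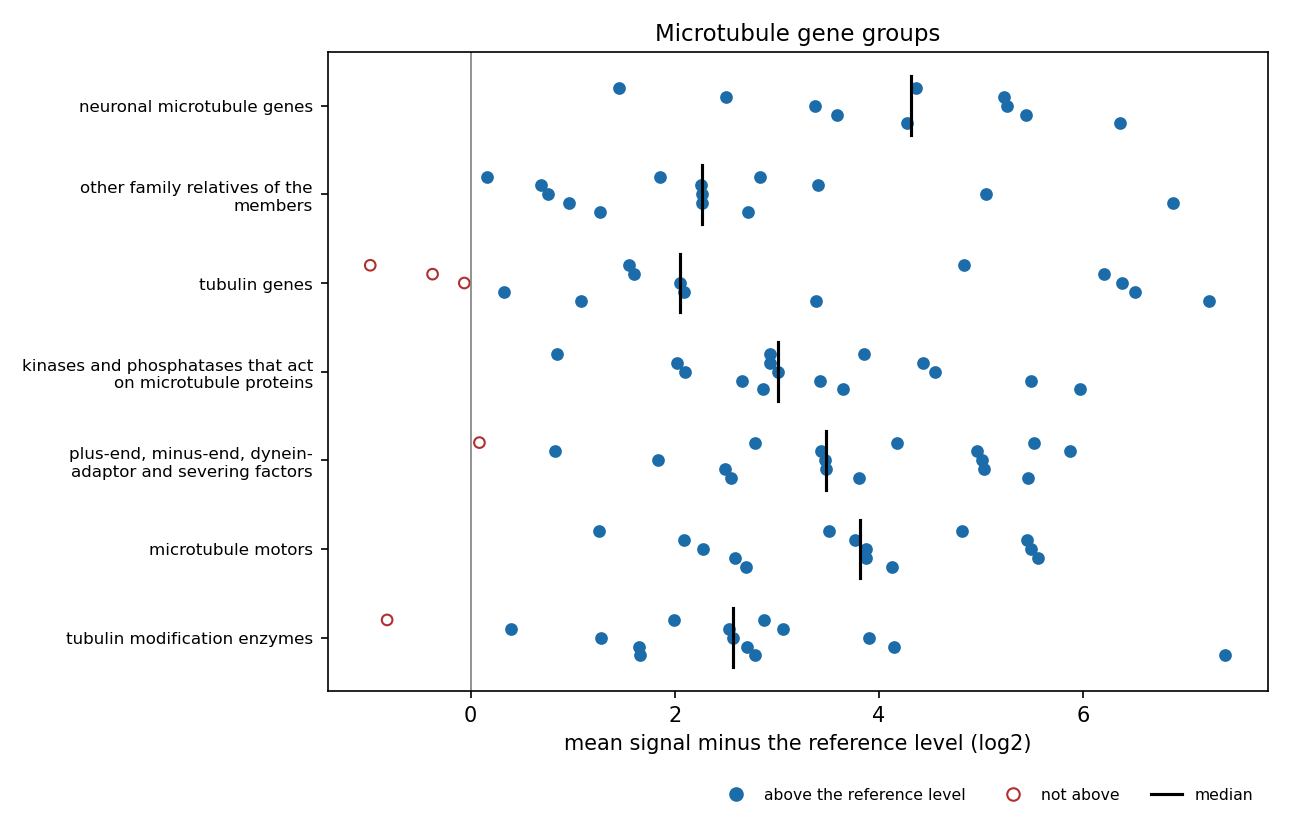
Mean signal minus the reference level (log2, x axis) for each measured gene, by gene group (rows), with filled points above the reference level, open points not above, and a line at each median. All 10 neuronal microtubule genes and all 14 relatives are filled, and 5 of the 90 pathway genes are open. Positions of different genes are not comparable.

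The cell types the cultures could hold were checked by markers in the same fit. All 8 neural stem cell markers were above the reference level, for example Sox2 (11.39 ± 0.073) and Nes (8.50 ± 0.035). So were all 8 oligodendrocyte precursor markers and 7 of 8 astrocyte markers, with Gjb6 (5.11) not above. Median margins were 5.61 for stem cell, 5.29 for oligodendrocyte precursor and 6.30 for astrocyte markers. Neuroblast markers were above in 8 of 9 cases (88.9%, beside 59.1% of all genes), with Sp8 (5.11) not above. Their margins ran between -0.51 and 7.07, with a median of 2.35. Mature neuron markers were above in 8 of 13 cases (61.5%, beside 59.1% of all genes and 62.8% without the receptors). Their margins lay between -0.50 and 2.94, with a median of 1.11. Rbfox3 (7.01), Snap25 (8.57), Syt1 (6.34) and Syp (7.72 ± 0.12) were above, and the neurofilament genes Nefl (5.58), Nefm (5.31) and Nefh (5.61) and the glutamate transporter gene Slc17a6 (5.19 ± 0.11) were not. For mature oligodendrocytes it was 4 of 7, with Mbp (8.72 ± 0.029) above and Mobp (5.58 ± 0.068) not, for ependymal cells 3 of 7, for microglia 4 of 8 and for endothelial cells 2 of 8. Median margins were 0.43 for mature oligodendrocyte, 0.03 for ependymal, 0.20 for microglia and -0.24 for endothelial markers. Without replicate 1 the endothelial count was 1 of 8 and the ependymal count 2 of 7, and without replicate 2 the ependymal count was 2 of 7. The shares for mature oligodendrocytes (57.1%) and microglia (50%), like that for mature neurons, lay near the 59.1% of all genes. The part of each cell type in the signals of the 10 microtubule genes was not tested. In RNA from whole cultures, a small number of cells with much transcript and many cells with little cannot be told apart.

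**Figure D4:**
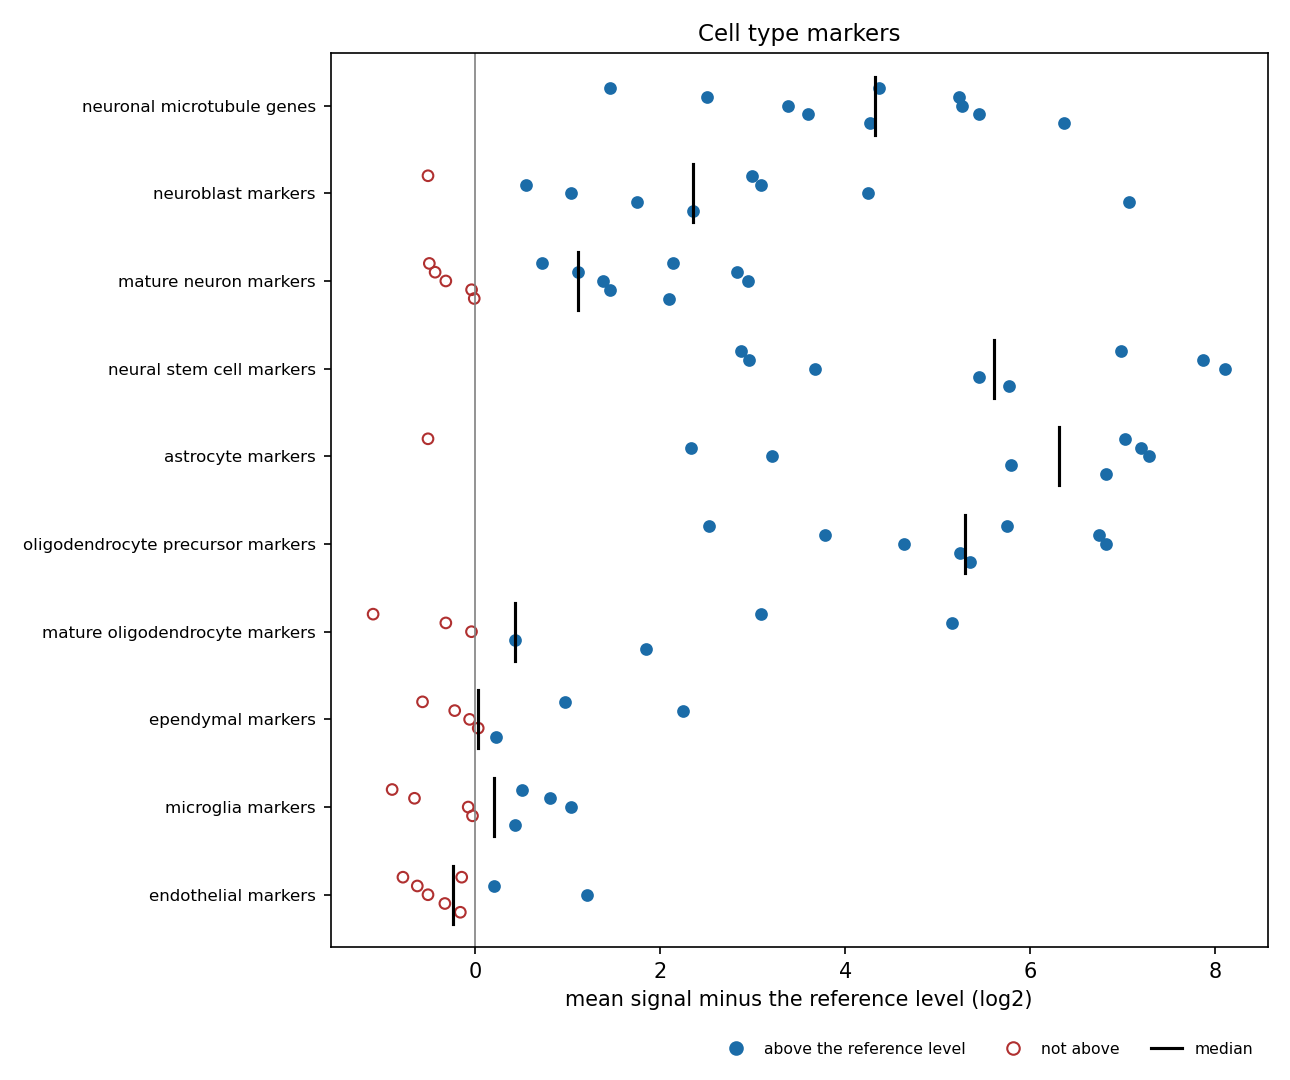
Mean signal minus the reference level (log2, x axis) for the 10 neuronal microtubule genes and for the markers of each cell type (rows), drawn as filled points above the reference level and open points not above, with a line at each median. All 8 stem cell and all 8 oligodendrocyte precursor markers are filled, and 5 of 13 mature neuron markers are open. Positions of different genes are not comparable.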

How the data were processed

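RNA from neurospheres of 1 group was measured on 3 Affymetrix arrays. The values are log2 signals for 41345 probe sets that the authors deposited and made with RMA (background correction, normalisation between arrays and a summary per probe set), per the submitters' processing notes. For its version and options, and for the genome build, the sources used here give nothing.

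The platform's annotation gave 1 symbol to 23521 probe sets, several to 1814 and none to 16010. Those with 1 symbol cover 22180 genes, and the probe set with the highest mean was used for the 1082 genes with several. The detection and spread tests were fitted over all genes in limma 3.58.1 (R 4.3.3), with an intercept, eBayes with an intensity trend and Benjamini-Hochberg adjustment. The prior degrees of freedom of the detection fit were infinite, so genes of like signal shared 1 spread. The number of arrays (n = 3) limits the precision.

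The members and lists were chosen with earlier results of these data known. All 10 members and the other family relatives are named, and of each other list up to 4 genes above and 4 not above, in list order, of which the cell type markers are given only in part. Of 95 pathway genes, 90 were measured. The detection calls were recomputed under 13 other settings and the spread test under the 9 of them that bear on it and 1 more, chosen after seeing the data. Start windows, ranges and likeness were computed 1 way only. Figures were drawn with matplotlib 3.10.9.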

Additional observations from a re-analysis of the deposited data

How the results depend on the processing

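All 10 microtubule genes stayed above the reference level under each of the 13 other settings. These took the 90th or 99th percentile of the receptors, 142 probe sets of defensins, bitter taste receptors and keratin-associated proteins as the reference genes, the median or the lowest of a gene's probe sets, 2 other scalings, a fit with no intensity trend, a fit with no shared spread, a filter on dim genes, or left out each array in turn. Not every setting could change a member. Each member has 1 probe set, so the median and the lowest probe set left its signal as it was. Centring each array on its median moved signal and reference level together and left the margins unchanged. The trend, shared spread and dim gene settings also left the margins unchanged and altered the test only. The margin of Stmn2 moved the most in proportion, between 0.64 (other reference genes, limma adjusted p = 0.0193 with the shared spread) and 1.81 (90th percentile). That of Mapt lay between 1.69 and 2.86 and that of Dcx between 3.46 and 4.63. The count of pathway genes above lay between 73 and 87 of 90, while the share of all genes above lay between 43.5% and 66.7% over the same settings, the filter on dim genes apart. The family relatives above numbered 9 to 14 of 14. The call of Dclk3 ended with the 99th percentile, the other reference genes, no intensity trend, no shared spread, and without replicate 1 or without replicate 2; the cause was not tested. Tubulin genes above numbered 10 to 13 of 15 and tubulin modification enzymes 12 to 14 of 15. Neuroblast markers above numbered 6 to 8 of 9 and mature neuron markers 6 to 10 of 13. For microglia markers it was 0 to 6 of 8, for mature oligodendrocyte markers 3 to 5 of 7, for ependymal markers 1 to 6 of 7 and for endothelial markers 0 to 4 of 8. The spread test called 0 members under each alternative it was run with. It also called 0 of all genes tested each time, so these counts carry no information on the stability of the set. No paired analysis was possible because all arrays belong to 1 group. Signals near the reference level, such as that of Dclk3, are at the limit of what these arrays can show.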
